A study of Mus musculus with 6 samples.

Results

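Highly conserved distal KLF3 peaks are the binding sites of KLF3 that the deposited annotation places in introns or between genes, in sequence that is strongly conserved between species. A merged KLF3 peak was taken as highly conserved and distal when its annotation was intergenic or intronic and its mean conservation score was at least 0.5. The score is a mean of PhastCons values, which run from 0 to 1 and give the probability that a base lies in a conserved element. By this rule 735 of the 14115 merged KLF3 peaks were taken, out of 9329 distal peaks. They are set beside the other 8594 distal KLF3 peaks and, where useful, the 4263 promoter KLF3 peaks.

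KLF3 is a zinc finger transcription factor of the SP/KLF family, which binds CACCC boxes and related GC-rich elements and represses many of its targets through the corepressor CtBP. Distal regulatory elements such as enhancers act on genes over long stretches of DNA, and those that control developmental regulators are often among the most conserved non-coding sequences in the genome. In fibroblasts, many enhancers also carry the sequence bound by AP-1, the dimer of Fos and Jun proteins.

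The cells were murine embryonic fibroblasts (MEFs) of the C57BL/6 strain that lacked endogenous Klf3 (Klf3-/-), so every group shared this knockout. They were rescued through an MSCV retrovirus with 1 of 3 constructs, all tagged with the V5 epitope: full-length KLF3; ΔDL, in which the DL of the CtBP-contact motif was replaced; or DBD, which retains the zinc fingers and a putative nuclear localization signal. Each construct was studied in a stable line grown from a single clone under puromycin, so the construct and the clone cannot be told apart. Chromatin was immunoprecipitated with an anti-V5 antibody in 2 replicates per construct, each with a paired input. Nothing in the labels says that the replicates came from separate cultures, and the spread between them may be technical. The tag totals behind the replicate scores, replicate 1 first, were 5.46 M and 18.1 M with KLF3. With ΔDL they were 1.77 M and 10.2 M, and with DBD 7.81 M and 8.38 M. These totals were derived from the scores and are smaller than the mapped reads that the authors report for each library. The peak heights combine both replicates of a construct as log2 tags in 400 bp per 100 M tags. Replicate 2 therefore supplied 76.8% of the tags behind a KLF3 height, 85.3% behind a ΔDL height and 51.7% behind a DBD height. A single tag counted as 4.29 normalised tags in a KLF3 height, 8.45 in a ΔDL height and 6.23 in a DBD height, and even coverage of the genome would place 15.1 normalised tags in 400 bp.

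The central 201 bases of 10 of these peaks are shown on the forward strand of mm9, in lower case. Capitals mark letter matches on either strand to the CACCC box (ACACCC or CCACCC or ACGCCC or CCGCCC) or to AP-1 (TGACTCA or TGAGTCA), and overlapping matches were counted separately. The peaks near Alox5ap, Ptprb and Fstl1 are shown because they are among the 5 highest KLF3 peaks, and those near Arid1a and Foxp1 because their conservation reached the maximum of 1. Elf4 stands for the lowest ΔDL difference from KLF3 among peaks where KLF3 or ΔDL reached a height of 8, and Diap2 and Tox for the peaks at which a mutant exceeded KLF3. Runx1 and Klf3 lie near regulators named in the gene groups described later.
Alox5ap (chr5:150040658-150040858): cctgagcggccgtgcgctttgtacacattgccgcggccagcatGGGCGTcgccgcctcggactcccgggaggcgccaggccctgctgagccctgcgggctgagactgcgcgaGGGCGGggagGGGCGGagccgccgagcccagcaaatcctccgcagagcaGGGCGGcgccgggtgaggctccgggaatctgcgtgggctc
Ptprb (chr10:115703982-115704182): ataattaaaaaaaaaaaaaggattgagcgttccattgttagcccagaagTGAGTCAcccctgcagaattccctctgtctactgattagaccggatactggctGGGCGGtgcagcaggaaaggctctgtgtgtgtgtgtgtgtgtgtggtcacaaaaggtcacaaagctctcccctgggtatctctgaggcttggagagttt
Fstl1 (chr16:37778283-37778483): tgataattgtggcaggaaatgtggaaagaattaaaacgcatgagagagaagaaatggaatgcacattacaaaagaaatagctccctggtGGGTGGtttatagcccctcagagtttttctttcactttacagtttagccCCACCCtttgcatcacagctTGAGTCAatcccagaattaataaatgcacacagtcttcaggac
Arid1a (chr4:133285536-133285736): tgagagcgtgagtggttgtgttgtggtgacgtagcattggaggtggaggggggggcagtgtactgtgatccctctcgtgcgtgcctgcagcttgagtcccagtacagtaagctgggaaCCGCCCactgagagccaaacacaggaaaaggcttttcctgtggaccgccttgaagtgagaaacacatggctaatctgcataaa
Foxp1 (chr6:99014044-99014244): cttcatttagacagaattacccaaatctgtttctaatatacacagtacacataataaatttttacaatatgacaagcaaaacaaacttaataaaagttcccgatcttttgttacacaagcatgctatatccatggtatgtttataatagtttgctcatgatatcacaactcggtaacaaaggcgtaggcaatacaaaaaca
Elf4 (chrX:45807397-45807597): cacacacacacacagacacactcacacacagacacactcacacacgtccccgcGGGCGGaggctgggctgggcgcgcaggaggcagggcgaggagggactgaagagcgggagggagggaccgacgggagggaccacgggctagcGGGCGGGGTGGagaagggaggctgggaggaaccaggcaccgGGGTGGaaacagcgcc
Diap2 (chrX:126861878-126862078): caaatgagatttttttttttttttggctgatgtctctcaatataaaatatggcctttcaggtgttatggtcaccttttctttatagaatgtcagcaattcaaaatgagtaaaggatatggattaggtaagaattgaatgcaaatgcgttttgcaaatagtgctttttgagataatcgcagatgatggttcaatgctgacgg
Tox (chr4:6908412-6908612): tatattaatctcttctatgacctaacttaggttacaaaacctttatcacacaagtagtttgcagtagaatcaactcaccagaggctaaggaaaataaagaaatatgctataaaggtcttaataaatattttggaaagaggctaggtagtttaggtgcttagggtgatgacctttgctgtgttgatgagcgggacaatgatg
Runx1 (chr16:92654196-92654396): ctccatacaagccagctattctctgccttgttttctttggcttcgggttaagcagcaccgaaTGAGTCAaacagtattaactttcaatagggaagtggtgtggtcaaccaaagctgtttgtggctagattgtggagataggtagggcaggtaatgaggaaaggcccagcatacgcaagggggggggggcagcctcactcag
Klf3 (chr5:65203420-65203620): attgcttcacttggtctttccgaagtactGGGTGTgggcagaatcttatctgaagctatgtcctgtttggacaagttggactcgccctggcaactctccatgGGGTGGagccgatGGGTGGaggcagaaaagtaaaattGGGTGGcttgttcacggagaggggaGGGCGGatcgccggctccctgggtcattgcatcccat
The 3 sequences near Foxp1, Diap2 and Tox held no capitals, whereas the Klf3 intron held 5 CACCC-box matches and the Alox5ap and Elf4 peaks held 4 each. AP-1 letters stood beside CACCC-box letters near Ptprb and Fstl1, and alone near Runx1.

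Of the 735 peaks, 385 lay in introns and 350 were intergenic, with 199 of the intronic peaks in the first intron of a transcript. The transcript of 378 intronic peaks could be matched to a gene, which was the nearest gene at 315 and another gene at 63. Their median distance to the nearest transcription start site (TSS) was 31.3 kb, against 32.3 kb for the other distal peaks. By distance, 268 lay within 10 kb of a TSS, 305 between 10 and 100 kb, and 162 beyond 100 kb. The authors' annotation placed 141 peaks (19.2%) in CpG islands, against 5.57% of the other distal peaks, and 22 (2.99%) in repeats, against 19.2%. In the GENCODE annotation of the same build, 126 of the peaks overlapped an exon, 57 of them a coding exon. Within 1 kb of an annotated start lay 161, and 186 met either condition. The deposited annotation classes these 186 as intronic or intergenic, but its own distances place 82 of them within 1 kb of a TSS. The remaining 549 were away from any exon or start. The peaks were also close to each other in places: 79 had another highly conserved peak within 10 kb, and 10 overlapped one and share tags with it.

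Conservation was higher in the narrow peaks at the binding site than in the wider interval. The narrow peaks called in the 2 KLF3 replicates, 122 and 142 bp wide, had a median conservation of 0.84 in both replicates where they fell in a highly conserved distal peak, against 0.62 over the 400 bp around them. The narrow peak had the higher value of the 2 at 580 sites in replicate 1 and 578 in replicate 2. At the other distal peaks the medians were 0.05 and 0.06 for the narrow peaks and 0.07 for 400 bp. Since the rule used the 400 bp value, the levels are a description. The values showed no gap at the threshold, with 36 peaks at a conservation of 0.49 and 31 at 0.50. The median KLF3 heights at these neighbouring values were 8.21 and 8.28, the ΔDL heights 7.89 and 7.54, and the DBD heights 5.59 and 5.58.

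KLF3 was higher at these peaks than at other distal peaks in the combined heights, though not at a G+C of 60% or more. The median KLF3 height was 8.03 (quartiles 7.56 and 8.53; range 6.45 to 10.86), or about 261 normalised tags, against 7.65 at the other distal peaks and 8.34 at promoter peaks. The difference of 0.38 on the log2 scale has no counterpart in 400 bp for each replicate. Replicate values exist only as tags in the narrower called peaks, a measure unlike the heights. There both sets had a median of 12 tags in replicate 1, and the medians were 25 and 21 tags in replicate 2. The mean KLF3 height was 8.07, against 7.76 at the other distal peaks. With the other distal peaks weighted to the G+C of the highly conserved peaks, their mean was 7.93. At 60% G+C or more the medians were 8.19 and 8.38, and in each lower bin of G+C the highly conserved peaks had the higher median. Peaks are not replicates of a construct, so no test was made over them.

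ΔDL was lower than KLF3 at most of the highly conserved distal peaks, by a modest amount. Its median height was 7.62 (range 2.83 to 10.27), and the median difference from KLF3 was -0.49, or 0.712 of the KLF3 height. At the other distal peaks ΔDL had a median of 7.79 and differed from KLF3 by -0.06. At 207 of the 735 peaks (28.2%) ΔDL was at least 2-fold lower, against 23.3% of all KLF3 peaks and 16.5% of the other distal peaks. It was at least 2-fold higher at 35 (4.76%), against 11.0% and 17.0%. All of these peaks were called for KLF3 and none had to be called for a mutant, so a lower mutant height is in part fixed by the choice, and the other distal KLF3 peaks share that choice. A rescaling that set the median height of the 3 constructs equal at the 2334 peaks they had in common shifted ΔDL heights by -1.06 and DBD heights by -0.42, and 75.8% of the highly conserved peaks then had ΔDL at least 2-fold lower and 0 at least 2-fold higher. The order of the 2 sets was kept, with 54.5% of the other distal peaks at least 2-fold lower on that scale.

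DBD was far lower than KLF3 at nearly all of these peaks. The median DBD height was 5.37 (range 0.89 to 8.31), or about 41.4 normalised tags. The lowest DBD height lay below the worth of a single DBD tag. The median difference from KLF3 was -2.72, or 0.152 of the KLF3 height. At the other distal peaks the median DBD height was 5.85 and the difference -2.18. At 680 of the 735 peaks (92.5%) DBD was at least 2-fold lower, against 79.2% of all KLF3 peaks, 68.3% of the other distal peaks and 98.5% of promoter peaks. At 0 of the 735 peaks was DBD at least 2-fold higher, against 0.184% of all KLF3 peaks and 0.303% of the other distal peaks.

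**Figure D1:**
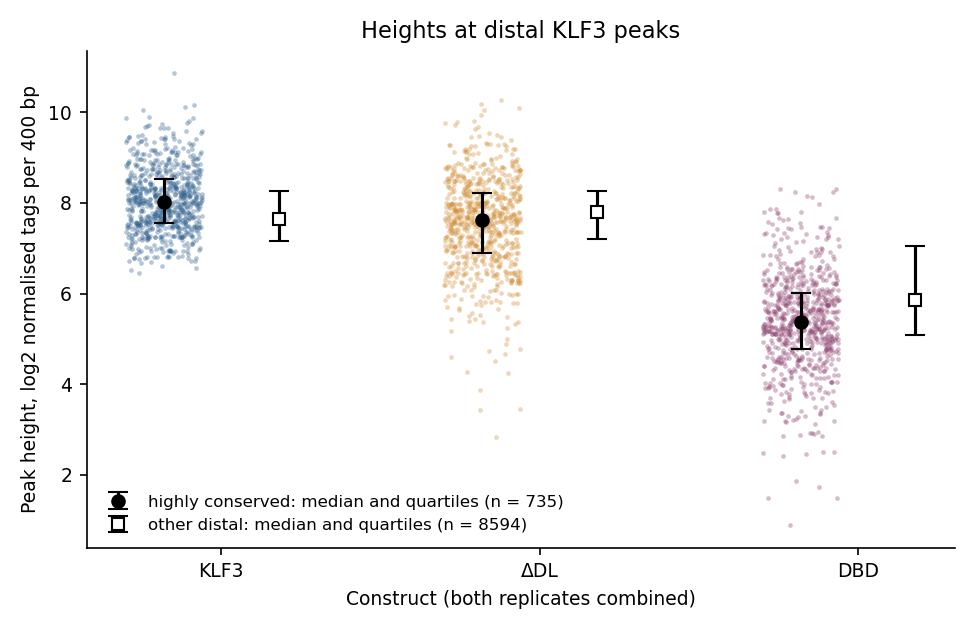
Peak height in log2 normalised tags per 400 bp for KLF3, ΔDL and DBD, with both replicates combined. Coloured points are the 735 highly conserved distal peaks, and symbols with bars give the median and quartiles of these (filled) and of the 8594 other distal KLF3 peaks (open). The filled median lies above the open one for KLF3 (8.03 and 7.65) and below it for ΔDL (7.62 and 7.79) and DBD (5.37 and 5.85).

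A small group of the peaks had a DBD height above that of KLF3. There were 42 such peaks (5.71%), against 26.6% of the other distal peaks. The excess was 0.02 to 0.94 on the log2 scale, and at all 42 the ΔDL height exceeded KLF3 as well. The median excess was 0.35 for DBD and 1.035 for ΔDL. Since the rescaling described above shifted DBD heights by -0.42 and ΔDL heights by -1.06, this order depends on the scale. The median KLF3 height of the 42 peaks was 6.95, with ΔDL at 8.09 and DBD at 7.44. In contrast to the other 693 peaks, they were poor in G+C (median 38.0%, against 49.9%), 0 lay in CpG islands, and 9 (21.4%) held a CACCC-box match, against 70.9%. AP-1 letters were found in 2 of the 42. They lay far from a TSS, at a median of 157 kb against 28.0 kb, though 16 lay in introns and 26 between genes. Their median conservation was 0.69 against 0.62. Both DBD replicates called a peak at 33 of the 42, and at 11 of the other 693. In the narrower called peaks of KLF3 replicates 1 and 2, the median tags were 11.5 and 16 at the 42 sites. At the others they were 13 and 26. The group was defined by the heights, so these values are a description, and the part of base composition in them was not tested.

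The replicate lists gave the same order as the heights. A ΔDL peak was called at 184 of the 735 sites (25.0%) in replicate 1 and at 471 (64.1%) in replicate 2. The ΔDL replicates differed in depth as well, with 1.77 M tags in replicate 1 and 10.2 M in replicate 2, and the part of depth in the gap was not tested. Both ΔDL lists held 179 of the sites (24.4%), against 34.0% of all KLF3 peaks and 41.4% of the other distal peaks. DBD peaks were called at 55 sites (7.48%) in replicate 1 and 52 (7.07%) in replicate 2. Both DBD lists held 44 (5.99%), against 17.0% of all KLF3 peaks and 26.0% of the other distal peaks. In each of the 4 mutant lists the share was lower at the highly conserved peaks than at the other distal peaks, for which it was 42.7% and 77.0% with ΔDL and 29.3% and 28.7% with DBD. The mean share over replicates was 44.6% ± 27.6 for ΔDL and 7.28% ± 0.289 for DBD (SD, n = 2), and a two-sided exact permutation test gave p = 0.333, the smallest p that 2 against 2 allows (Benjamini-Hochberg adjusted p = 0.333 over 5 such tests). A site outside a mutant list may still have tags below the limit of calling.

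The same direction was seen in the peak lists of each construct taken on its own, which do not depend on the KLF3 peaks. Conservation in the replicate lists is the mean over the called peak, 122 to 142 bp wide. Among the distal peaks of the replicate lists, 12.1% and 14.7% reached a conservation of 0.5 with KLF3. The shares were 5.69% and 8.80% with ΔDL and 3.91% and 4.15% with DBD. The means in this order were 13.4% ± 1.78, 7.25% ± 2.20 and 4.03% ± 0.170 (SD, n = 2). The replicate values of the 3 constructs did not overlap, and every pair of constructs gave an exact permutation p = 0.333, again the smallest possible. The merged peaks were scored over 400 bp, so their shares are not on the same measure as those of the replicate lists. Of the merged distal peaks, 735 of 9329 (7.88%) were highly conserved with KLF3, against 365 of 10840 (3.37%) with ΔDL and 107 of 4744 (2.26%) with DBD.

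Across all distal KLF3 peaks, most of the change with conservation was seen at the low end. In peaks with a score under 0.1 the median difference from KLF3 was 0.24 for ΔDL and -1.72 for DBD, and between 0.4 and 0.5 it was -0.46 and -2.79. Within the highly conserved peaks the ΔDL difference went from -0.65 between 0.5 and 0.6 to -0.09 at 0.9 or more, where there were 42 peaks. The DBD difference stayed between -2.80 and -2.51 over the same bands. Over the 735 peaks, conservation had a Spearman's rho of 0.12 with the ΔDL difference, 0.06 with the DBD difference and -0.07 with the KLF3 height, across peaks that share libraries.

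**Figure D2:**
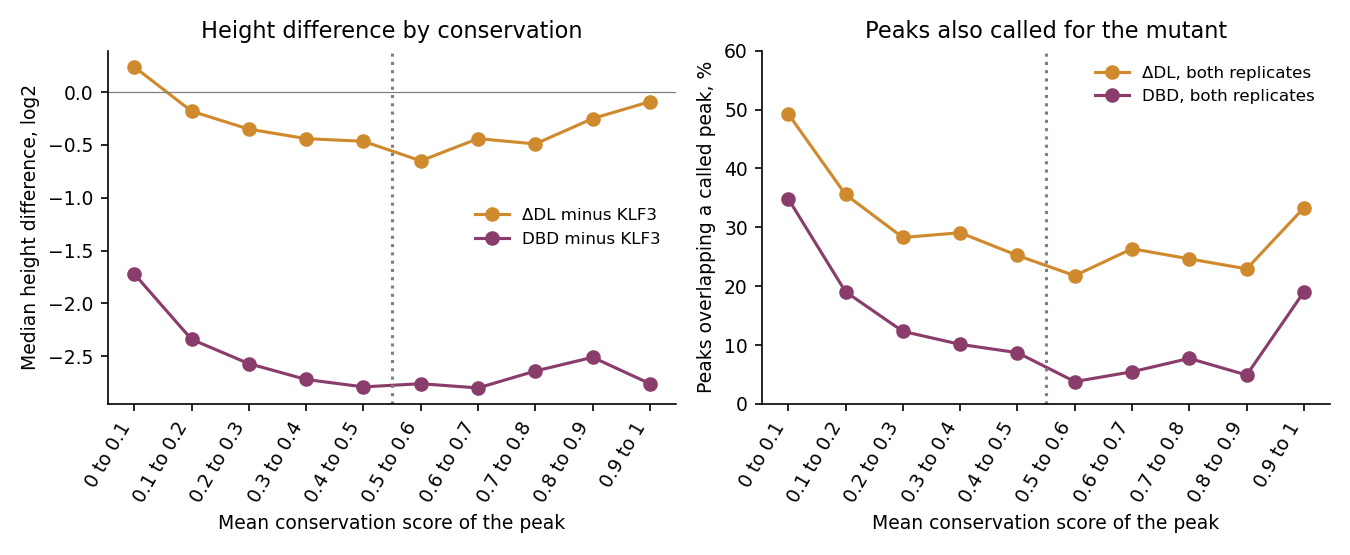
Distal KLF3 peaks in bands of mean conservation score, with the threshold of 0.5 dotted. Left, median height difference from KLF3 (log2) for ΔDL and DBD; right, percent of peaks that overlap a called peak in both replicates of the mutant. Both shares are highest in the band under 0.1 (49.3% and 34.9%) and lowest between 0.5 and 0.6 (21.8% and 3.81%), and at 0.9 or more they are 33.3% and 19.0%.

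Base composition moved with these differences. The median G+C of the highly conserved peaks was 49.1%, against 45.4% for the other distal peaks and 63.8% for promoter peaks. Over the 735 peaks G+C had a Spearman's rho of -0.59 with the ΔDL difference, -0.45 with the DBD difference and 0.27 with the KLF3 height. Under 40% G+C, 100 highly conserved peaks had a median ΔDL difference of 0.36 and a median DBD difference of -1.72, and the other distal peaks had 0.93 and 0.30. At 60% or more, 180 highly conserved peaks had medians of -1.19 and -3.22, close to -1.06 and -3.25 at the other distal peaks. The 2 sets thus lay apart in G+C-poor sequence and close together in G+C-rich sequence. When the other distal peaks were weighted to the G+C of the highly conserved peaks, 24.9% had ΔDL at least 2-fold lower, against 28.2%, and 78.3% had DBD at least 2-fold lower, against 92.5%. The share called in both DBD lists was 17.6% after that weighting, against 5.99%, and for ΔDL it was 32.7%, against 24.4%.

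**Figure D3:**
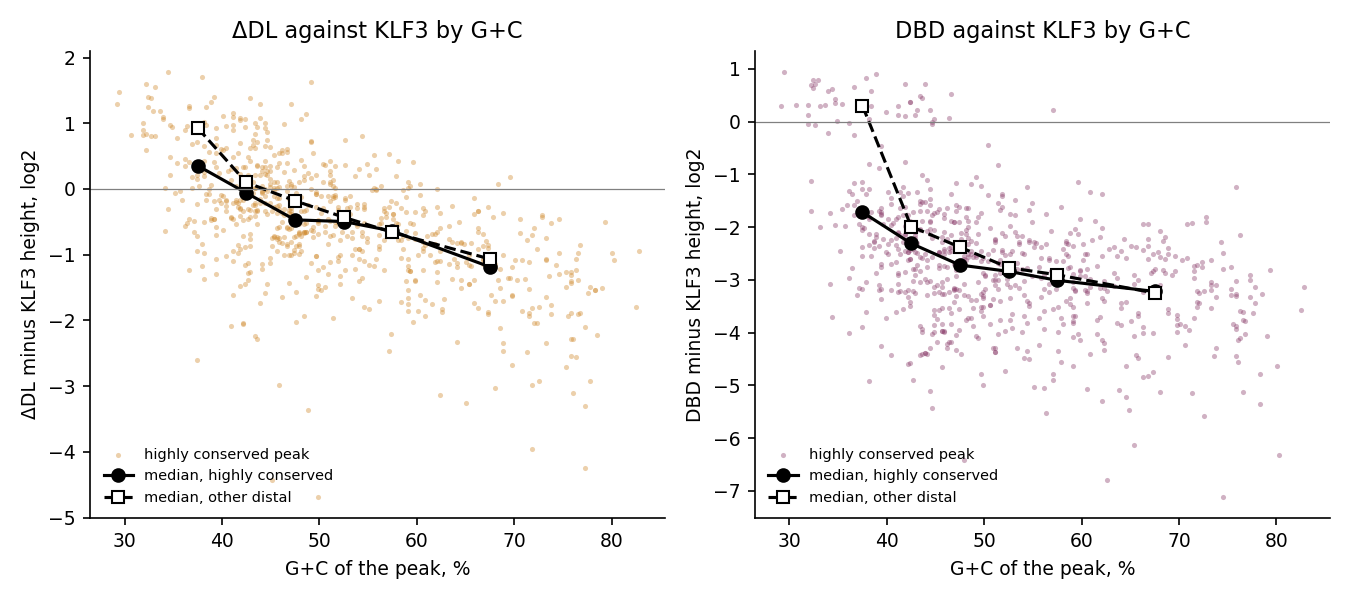
Height difference from KLF3 (log2) against the G+C content of the peak (%) for ΔDL (left) and DBD (right). Points are the 735 highly conserved peaks; lines join the medians in bins of G+C for these (filled) and for the other distal KLF3 peaks (open). Under 40% G+C the DBD medians are -1.72 and 0.30, and at 60% or more they are -3.22 and -3.25.

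Position relative to genes moved with the differences too. The 141 peaks in CpG islands had a median ΔDL difference of -1.23 and a DBD difference of -3.20, against -0.32 and -2.56 at the 594 outside. Both DBD lists held 0 of the 141, against 17.0% of all KLF3 peaks. The 479 other distal peaks in CpG islands were close to the 141, with differences of -1.05 and -3.19, and 0.626% were in both DBD lists. The median G+C of the 141 peaks was 69.8%, so position and base composition were not separated here. The 186 peaks at exons or starts had medians of -0.98 for ΔDL and -3.03 for DBD, and the 549 away from them had -0.34 and -2.61. In introns the ΔDL difference was -0.65, and in intergenic sequence it was -0.33. Beyond 100 kb from a TSS, 162 peaks had a ΔDL difference of -0.15 and a DBD difference of -2.33, and within 10 kb, 268 peaks had -0.85 and -3.08.

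CACCC-box letters were common in the highly conserved peaks and clustered at their centres. In the central 201 bases 500 of the 735 (68.0%) held a match, against 35.4% of flanks of the same length, taken from 400 to 600 bp to the right of the peak centre. The share was 55.5% at the other distal peaks (26.9% of their flanks), 94.4% at promoter peaks and 68.8% at all KLF3 peaks. With the G+C of the other distal peaks weighted to that of the highly conserved peaks it was 66.8%. The heights moved with the number of matches. The 235 peaks with 0 matches had median heights of 7.77 (KLF3), 7.82 (ΔDL) and 5.61 (DBD), and the 147 peaks with 3 or more matches had 8.25, 7.07 and 5.17. The share with ΔDL at least 2-fold lower was 13.2% in the former and 62.6% in the latter, whose median G+C was 43.4% and 66.8%.

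AP-1 letters were found in 133 of the peaks (18.1%), against 3.81% of flanks, and in 23.9% of the other distal peaks and 3.35% of promoter peaks. Among 18 motifs searched on both strands, others with a higher share at the centre than in the flank included the TEAD element GGAATG (21.2% against 12.2%), the RUNX element TGTGGTT (9.93% against 4.35%) and the E-box CAGCTG (15.2% against 9.39%). The corresponding shares at the centre of the other distal peaks were 19.1%, 9.41% and 11.6%, and of all KLF3 peaks 15.5%, 7.04% and 11.4%. Forkhead letters (TGTTTAC) were found in 5.58% of centres and 2.45% of flanks, and the nuclear factor I letters TTGGCA in 15.9% and 9.39%, beside 3.80% and 13.5% of centres at the other distal peaks and 3.11% and 11.5% at all KLF3 peaks. The homeodomain core TAATTA was held by 6.53% of centres and 5.44% of flanks, and the Sox letters ACAAAG or ACAATG by 24.5% and 24.2%. A match of letters is a description and shows no binding of the factor.

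Highly conserved peaks without either of the 2 main motifs were still low in DBD. The 189 peaks that held neither CACCC-box nor AP-1 letters had median heights of 7.71 (KLF3), 7.85 (ΔDL) and 5.63 (DBD), and 16.9% of them were called in both DBD lists. The 3066 other distal peaks with neither had medians of 7.16, 7.93 and 7.14, and 59.4% were called in both DBD lists. Their median G+C was 39.7%, against 43.1%. In peaks with both motifs the 2 sets were close, with a median DBD difference of -3.00 at 87 highly conserved peaks and -2.80 at 1301 others.

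**Figure D4:**
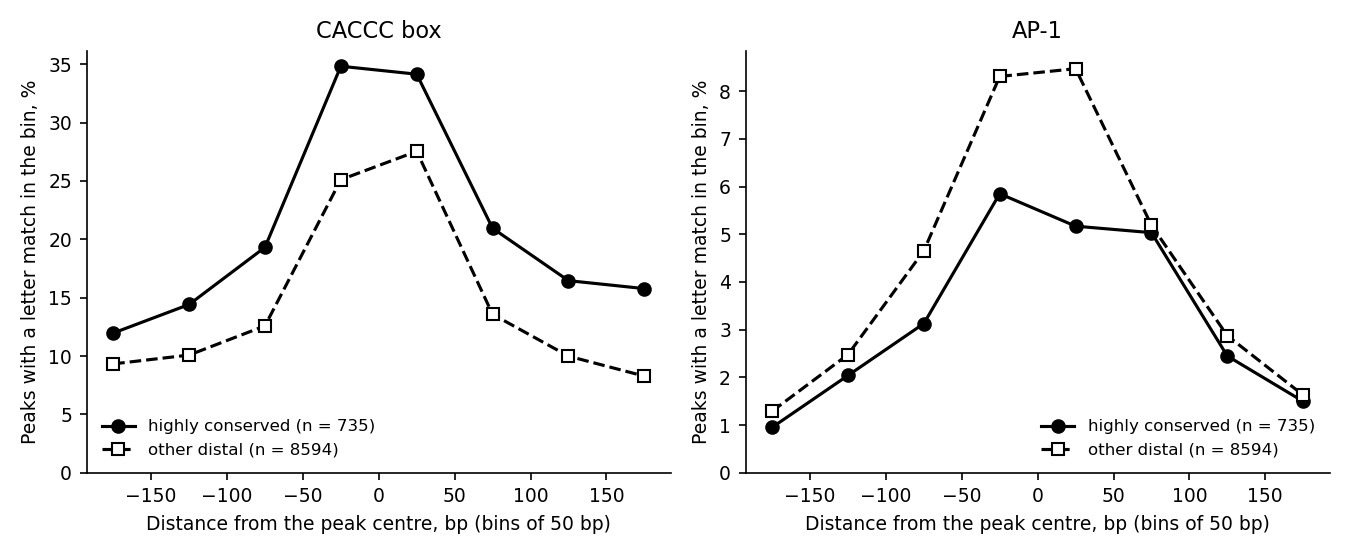
Percent of peaks with a letter match to the CACCC box (left) or AP-1 (right) in bins of 50 bp by distance from the peak centre, for the 735 highly conserved peaks (filled) and the 8594 other distal KLF3 peaks (open). In the bin just left of the centre 34.8% and 25.1% hold a CACCC-box match and 5.85% and 8.31% an AP-1 match, and every curve falls towards both edges.

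The 5 highest KLF3 peaks of the set stood out in both KLF3 replicates. Heights are listed here and in the next paragraphs in the order KLF3, ΔDL, DBD, on the log2 scale. Tags given for a replicate, here and below, are those of the narrower called peak and not of the 400 bp behind a height. The highest lay 35.9 kb upstream of Alox5ap, which encodes an activator of 5-lipoxygenase in leukotriene synthesis, with heights of 10.86, 9.95 and 6.85. It held 70 and 177 tags in KLF3 replicates 1 and 2, 12 and 49 in the ΔDL replicates, and a called DBD peak of 8 tags in replicate 1 alone. In intron 4 of Thpo, the gene for thrombopoietin, the heights were 10.16, 10.06 and 7.26, with 85 and 146 KLF3 tags and 11 and 97 ΔDL tags, and this peak overlapped an annotated coding exon. A peak 34.3 kb upstream of Ptprb, which encodes a receptor tyrosine phosphatase of endothelial cells, lay in intron 10 of the neighbouring Ptprr and had 10.12, 10.27 and 6.45. ΔDL was thus level with KLF3 at these last 2 sites and lower near Alox5ap. In intron 2 of Fstl1, whose secreted product binds BMPs, the heights were 10.06, 9.11 and 6.98, and 3.06 kb upstream of Frs2, an adaptor of FGF receptors, they were 9.90, 9.73 and 6.70. The DBD difference at the 5 sites ranged from -4.01 to -2.90.

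The 5 most conserved peaks, each with a score of 1, lay near genes for chromatin and transcription regulators. The intron 1 peak of Arid1a, a subunit of the SWI/SNF remodelling complex, had heights of 8.06, 7.54 and 4.30. An intron 4 peak of the forkhead gene Foxp1 had 8.17, 7.53 and 5.10, and a peak 134 kb upstream of the T-box gene Tbx18 had 8.13, 8.06 and 5.86. In intron 1 of Sp4, a zinc finger gene related to the KLFs, the heights were 7.99, 6.25 and 4.30, and in intron 1 of Stag2, a cohesin subunit, they were 7.57, 7.58 and 3.80. Both of the latter overlapped an annotated exon, and they lay 218 bp (Sp4) and 56 bp (Stag2) from an annotated start. The KLF3 replicates held between 9 and 21 tags (replicate 1) and between 20 and 33 tags (replicate 2) at these 5 peaks, and 0 of them was called in a DBD list. In the whole set of highly conserved distal peaks, 91.4% were in neither DBD list.

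Where KLF3 or ΔDL reached a height of 8, the lowest ΔDL difference was in intron 1 of Elf4, an ETS factor gene. The heights there were 8.62, 4.67 and 5.40, with 10 and 45 KLF3 tags and no called peak of either mutant. The peak nearest to Cpn2, a carboxypeptidase N subunit, had 8.50, 5.37 and 5.48, and the intron 1 peak of Sema3f, a semaphorin, had 8.59, 5.48 and 4.03. All 3 sites were rich in G+C, at 62.3% to 76.1%. The Elf4 peak overlapped an annotated exon, 151 bp from an annotated start, and the Elf4 and Sema3f peaks lay in CpG islands. At the other end, ΔDL exceeded KLF3 in an intron of the formin gene Diap2 (6.72, 8.50 and 7.34), in intron 1 of Tox, an HMG-box factor gene (7.49, 9.20 and 8.31), and 62.5 kb from 5430434I15Rik (7.55, 9.18 and 5.24). At Tox both replicates of every construct held a peak, with 19 tags in each KLF3 replicate, 31 and 45 in the ΔDL replicates and 32 and 24 in the DBD replicates. Among peaks where KLF3 or DBD reached a height of 8, DBD exceeded KLF3 by 0.90 at Vldlr, a lipoprotein receptor gene, by 0.82 at Tox and by 0.79 at Egfem1. At Vldlr the heights were 7.26, 8.58 and 8.16, and at Egfem1 they were 7.34, 8.53 and 8.13. Both of these sites were called in both replicates of all 3 constructs, and neither held a CACCC-box or AP-1 match in the central 201 bases.

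**Figure D5:**
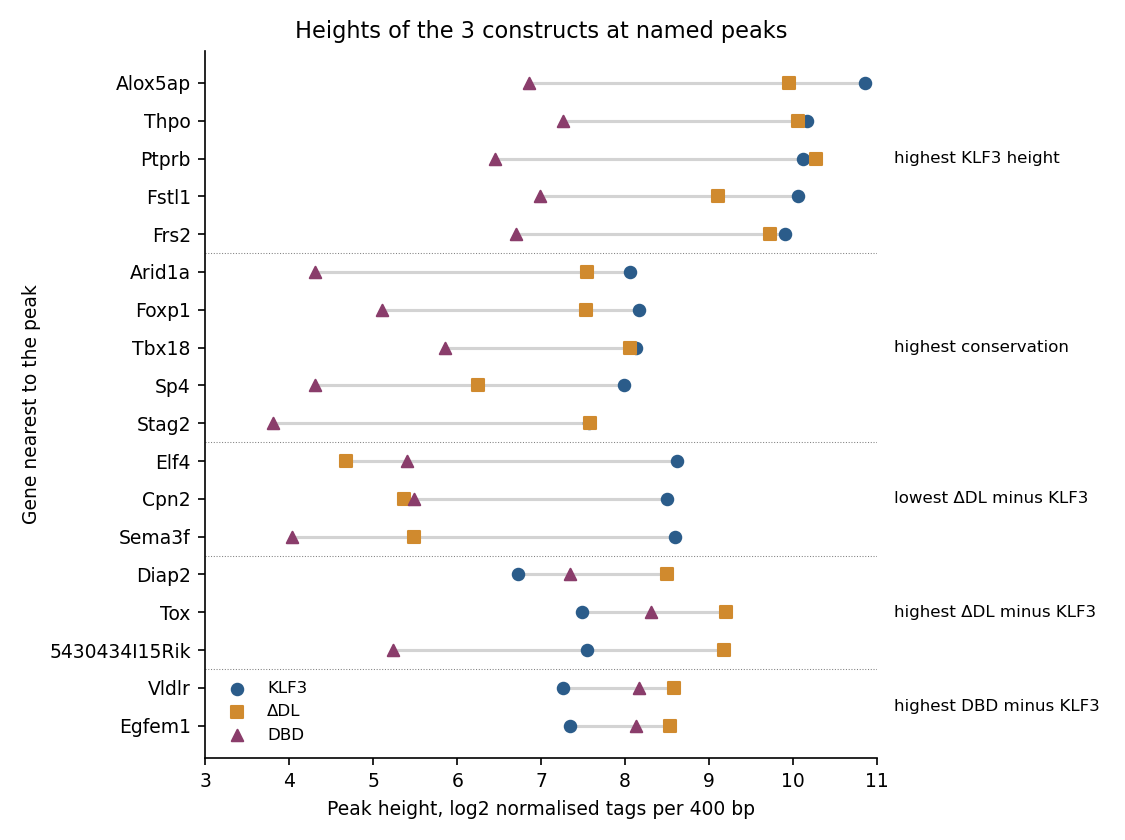
Peak height in log2 normalised tags per 400 bp of KLF3 (circles), ΔDL (squares) and DBD (triangles) at 18 highly conserved peaks, labelled by the nearest gene and grouped by the rule that chose them (Tox met both of the last rules). DBD lies far left of KLF3 at the peaks chosen for KLF3 height or conservation, and right of KLF3 at Diap2, Tox, Vldlr and Egfem1.

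Several genes had more than 1 highly conserved peak. Of 630 nearest genes, 547 had 1 such peak, 68 had 2 and 15 had 3 or more. The zinc finger gene Zfp608 had 5, with KLF3 heights from 7.58 to 8.43, ΔDL heights from 7.36 to 8.98 and DBD heights from 3.19 to 6.34. It was followed by genes with 4, of which the AT-hook gene Ahdc1 had KLF3 heights of 6.97 to 8.63, ΔDL heights of 6.40 to 7.65 and DBD heights of 4.0 to 5.82. At Rbpj, the DNA-binding effector of Notch signalling, the KLF3 heights were 7.95 to 9.54, with ΔDL from 7.60 to 8.83 and DBD from 4.82 to 6.21. The chromatin remodeller gene Chd9 had KLF3 heights of 7.26 to 7.98, ΔDL of 6.82 to 7.46 and DBD of 1.74 to 5.14. Of its peaks, 2 overlap and share tags. The lowest DBD heights at Zfp608 and Chd9 were 9.13 and 3.34 normalised tags, below the even coverage of 15.1. The value at Chd9 was also below the 6.23 of a single DBD tag. At Smad6, an inhibitor of BMP and TGF-β signalling, the KLF3 heights were 7.47 to 8.85, ΔDL was at 6.56 to 8.23 and DBD at 5.19 to 6.01. The ΔDL difference from KLF3 ranged from -0.46 to 0.55 at Zfp608 and was negative at every peak of Ahdc1, Rbpj, Chd9 and Smad6. Etv1, an ETS factor gene that also had 4 peaks and was named after its values were seen, had ΔDL differences of both signs, from -0.73 to 0.36, and DBD differences from -4.40 to -2.80. DBD was lower than KLF3 at all 21 peaks of the other 5 genes, and 0 of the 21 was called in a DBD list. Both were common in the whole set of highly conserved distal peaks. DBD was at or below KLF3 at 94.3% of that set, and 91.4% were in neither DBD list, against 77.9% of all KLF3 peaks.

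Genes of 6 lists of regulators and structural proteins were looked up as nearest genes. Developmental transcription factors were nearest to 36 of the 735 peaks (4.90%), against 1.63% of the other distal peaks. Signalling ligands, receptors and inhibitors were nearest to 22 (2.99%, against 1.01%), AP-1, TEAD and RUNX genes to 12 (1.63%, against 0.384%), and KLF, Sp and CtBP genes to 9 (1.22%, against 0.337%). Extracellular matrix and adhesion genes were nearest to 9 (1.22%, against 1.13%) and actomyosin genes to 9 (1.22%, against 1.23%). The lists of regulators thus took a larger share of the highly conserved peaks than of the others, and both lists of structural genes a like share. The lengths of the intergenic regions around these genes were not accounted for, and no test was made.

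Near the 36 developmental regulator peaks ΔDL was at least 2-fold lower at 9, at least 2-fold higher at 2, and DBD at least 2-fold lower at 33. Over all 735 peaks these shares were 28.2%, 4.76% and 92.5%, and over all KLF3 peaks 23.3%, 11.0% and 79.2%. The median differences at the 36 peaks were -0.29 for ΔDL and -2.66 for DBD, beside -0.49 and -2.72 over all 735. The highest KLF3 peak of the group lay in intron 2 of Nfix, a nuclear factor I gene, with KLF3 at 9.88, ΔDL at 8.44 and DBD at 5.81. A peak 5.19 kb from the TSS of Hes1, a Notch target that encodes a repressor, had 9.48, 7.98 and 5.42. A peak 68.5 kb from Sox9, a factor needed for cartilage formation, had 9.16, 7.34 and 4.12, and a peak 140 kb upstream of Hmga2 had 8.95, 8.66 and 4.61. ΔDL was below KLF3 at all 4. The exceptions, named after their values were seen, were the peaks near Klf5 (6.95, 8.25 and 7.66), Nfib (7.32, 8.32 and 7.80) and Twist1 (7.07, 7.94 and 7.03), at which DBD was not 2-fold lower. These 3 lay 118 to 414 kb from the TSS and had a G+C of 43.4% to 44.6%.

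Near AP-1, TEAD and RUNX genes, ΔDL was at least 2-fold lower at 2 of 12 peaks and DBD at all 12. An intronic peak 0.359 kb from the TSS of Atf7, which belongs to the ATF family, had 9.66, 9.39 and 6.65 (KLF3, ΔDL, DBD). This peak overlapped an annotated exon. The Runx1 gene, a regulator of blood formation, held peaks in intron 3 (9.22, 8.53 and 5.92) and in intron 5 (8.89, 8.16 and 4.79), and a peak 188 kb from the TSS of Runx2, a regulator of bone formation, had 8.83, 7.97 and 4.66. The signalling list had ΔDL at least 2-fold lower at 5 of 22 peaks and DBD at all 22, and its highest peaks were those of Fstl1 (10.06 for KLF3), Smad6 (8.85 and 8.36) and Spry4, an inhibitor of receptor tyrosine kinase signalling (8.49). At the Spry4 peak ΔDL was at 8.13 and DBD at 5.31.

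Peaks near structural genes had a median KLF3 height of 7.97 for the matrix and adhesion list and 8.16 for the actomyosin list. A peak 35.1 kb upstream of Cyr61, a matricellular protein gene, had 9.05, 8.48 and 6.35 (KLF3, ΔDL, DBD). Peaks 2.46 and 7.21 kb upstream of Col1a1, which encodes a chain of type I collagen, had KLF3 heights of 8.79 and 8.57, ΔDL heights of 8.15 and 7.91, and DBD heights of 5.24 and 4.68. In intron 1 of Itga5, the fibronectin receptor subunit, they were 8.23, 7.07 and 5.86. Of the actomyosin genes, the filamin gene Flna had the highest peak (9.36, 9.07 and 5.44), and others lay near Pdlim7 (9.12, 7.59 and 5.03) and the vinculin gene Vcl (8.18, 7.48 and 5.00). ΔDL was at least 2-fold lower at 2 of 9 peaks in each of these lists, and DBD at 9 of 9.

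The family of KLF3 itself was among the nearest genes. In intron 1 of Klf3, at a site that overlaps an annotated exon, KLF3 reached 9.31, ΔDL 9.68 and DBD 5.96, with 29 and 76 KLF3 tags and 11 and 47 ΔDL tags. The peak in intron 1 of Sp1 had 8.98, 8.14 and 5.22, that of the corepressor gene Ctbp1 had 8.63, 8.27 and 5.79, and that of Sp2 had 8.45, 7.47 and 4.84. The Sp1 peak also overlapped an annotated exon, and those of Ctbp1 and Sp2 lay in CpG islands. The Sp1, Ctbp1 and Sp2 peaks lay only 0.588, 0.859 and 0.307 kb from the TSS. The Klf3 peak lay 58 bp from an annotated start. Over the 9 peaks of this list ΔDL was at least 2-fold lower at 4 and at least 2-fold higher at 1, the Klf5 peak, and DBD was at least 2-fold lower at 8. In the whole set of 735 these shares were 28.2%, 4.76% and 92.5%, and over all KLF3 peaks 23.3%, 11.0% and 79.2%.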

How the data were processed

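KLF3, ΔDL and DBD were profiled by anti-V5 ChIP-seq in 2 replicates each. A deposited record joins both replicates, whose peak lists are separate, and the 3 input records enter only through the authors' peak calling. The authors aligned reads to mm9 with Bowtie2 2.0.0 and called, annotated and merged peaks with HOMER 4.1. In each replicate list the deposited peak score is a signal, the tags per 100 M tags. Its values are whole multiples of the worth of 1 tag, which gave the totals. Tags given for a replicate are these scores as tags, in the called peak rather than in 400 bp. The heights are log2 values that the authors counted in 400 bp over both replicates combined. They carry a small jitter, of up to 0.08 where the same interval stands in 2 tables. The G+C content is a fraction, and the conservation a mean PhastCons score, both deposited by the authors with each peak.

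Heights were read from the table of all peaks, on the same interval (609 peaks) or by an overlap of at least 200 bp. A site counted as called by an overlap of 1 bp with a replicate peak. The G+C recomputed from the NCBIM37 sequence lay within 0.01 percentage points of the deposited value at all 735 peaks. Exons and starts came from GENCODE on the same build, and the genes of intronic transcripts from RefSeq by accession. The members and lists were chosen with earlier results of these data known. Peaks were named by rule: extremes of KLF3 height, conservation and height difference, genes with most peaks, and up to 4 peaks per list by KLF3 height. A peak that the rule named is not reported here. Peaks are not replicates, so no test was made over them. Shares in replicate lists were compared by two-sided exact permutation tests with Benjamini-Hochberg adjustment. The code, tested on simulated data, used scipy 1.17.1, pysam 0.24.0, pandas 2.3.3 and numpy 2.4.6 under Python 3.11.15.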

Additional observations from a re-analysis of the deposited data

How the results depend on the processing

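Under 19 alternative settings no median difference changed sign, and 84 of 117 values stayed close to those reported (shares of peaks past a fold or called within 1.5 times, medians and motif shares within their 95% interval over peaks, differences between replicate lists in sign). These intervals treat peaks that share libraries as independent, so they served only as a yardstick and give no replicate error. Scaling to the peaks shared by all constructs gave a median ΔDL difference of -1.55 and a DBD difference of -3.14, with 75.8% of the peaks at least 2-fold lower with ΔDL and 0 at least 2-fold higher. Restricting the join to identical intervals gave -0.65 for ΔDL, 2.96% at least 2-fold higher and a KLF3 height difference of 0.27. A conservation of at least 0.6 gave a ΔDL difference of -0.38. For intronic peaks the ΔDL difference was -0.65, the share at least 2-fold higher 2.86%, the KLF3 height difference 0.27, and the CACCC-box and AP-1 shares 73.0% and 15.3%. For intergenic peaks the corresponding values were -0.33 for ΔDL, 0.48 for KLF3, and 62.6% and 21.1%. Away from exons and starts they were -0.34 for ΔDL, 60.5% and 22.4%, and at least 10 kb from a start -0.32 for ΔDL, -2.52 for DBD, 58.0% and 22.1%. In the upper 50% by peak score, 1.90% of peaks were at least 2-fold higher with ΔDL, the DBD difference was -3.07 and the CACCC-box share 75%. With a height of at least 8 required, the DBD difference was -3.10. Windows of 100 and 400 bp gave CACCC-box shares of 55.8% and 75.8% and AP-1 shares of 10.3% and 23.9%. The cause of these shifts was not tested.

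With 1 ΔDL replicate left out in turn, the share of peaks called with ΔDL ranged from 25.0% to 64.1%, since a single list then decides the call: it was 64.1% without ΔDL replicate 1. The planned overlap of 200 bp was not run because the replicate peaks are at most 142 bp wide. An overlap of 100 bp, chosen after seeing the data, changed neither share of called peaks by over 1.5 times. With the list number as a replicate block, a choice made after seeing the data, the mean differences are the same by construction. In percentage points the difference was 37.3 between ΔDL and DBD in the share of the highly conserved peaks called. The other comparisons took the share of each list's own distal peaks with a conservation of at least 0.5 over the called peak. Their differences were 9.36 (KLF3 and DBD), 6.15 (KLF3 and ΔDL) and 3.21 (ΔDL and DBD). Both pairs had the same sign in each comparison, with an exact sign-flip permutation p = 0.5, the smallest that 2 pairs allow. The labels do not say that a number marks a shared batch, and the heights, which combine both replicates, could not be paired.

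The scores of ΔDL replicate 1 rest on a derived total of 1.77 M tags, and the part of this total in the number of ΔDL calls was not tested. The heights have no replicate error. The smallest p that 2 replicates against 2 allow is 0.333.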
